A study of Mus musculus with 11 samples.

Results

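The solute carriers of the families Slc1, Slc3, Slc6, Slc7, Slc36, Slc38 and Slc43 carry most amino acids across the plasma and lysosomal membranes, and their mRNA levels were compared here between normal and Raptor-deficient mouse β-cells. The genes were chosen by symbol: 64 protein-coding genes of the deposited table matched these families, of 34728 symbols in all. Of the 64, 23 reached an FPKM of 1 (fragments scaled to transcript length and library size) in at least 3 of the 11 libraries and were tested, 34 lay below that minimum with a value above 0 in at least 1 library, and 7 were listed at 0 throughout. The choice by symbol also takes in carriers of creatine, taurine and neurotransmitters in the Slc6 family, the nucleobase carrier Slc43a3, and Slc7a6os, which is named for its position opposite Slc7a6 and is not a carrier. Another 3 matching symbols were noncoding and were left out.

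All samples were GFP-positive β-cells sorted from islets of mice on a C57BL/6 x 129SV background at 8 weeks of age. Raptor is the scaffold of the kinase complex mTORC1. Its floxed gene was deleted by RIP-Cre, whose driver is the rat insulin promoter, and a Rosa26 GFP reporter marked the recombined cells. WT littermates carried RIP-Cre and the GFP reporter without the deletion (3 libraries). Diabetic βRapKOGFP mice had the deletion and no insulin pellet (4 libraries), and euglycemic βRapKOGFP mice had the deletion and an insulin pellet for 4 weeks (4 libraries). The table names the euglycemic columns KI, an abbreviation that the labels do not spell out; they were taken as the insulin-treated mutants, the group left once WT and KO columns were matched, and every euglycemic value rests on that. The euglycemic group therefore differs from WT by both the deletion and the insulin, and from the diabetic group by insulin and glucose together.

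Amino acid carriers and mTORC1 are tied in both directions. Leucine, arginine and glutamine brought in by carriers such as LAT1 with its CD98 heavy chain activate mTORC1 at the lysosome, and mTORC1 in turn raises ATF4, a transcription factor that switches on many carrier genes and is also induced by amino acid shortage through the kinase GCN2. In islets, amino acids are secretagogues for β-cells, and glutamine uptake through SNAT5, the product of Slc38a5, is known from α-cells, where it accompanies their growth when glucagon signalling is blocked.

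Rptor itself, which encodes Raptor, had FPKM of 0.948, 1.36 and 1.79 in WT, 0.937, 0.831, 0.507 and 0.485 in diabetic, and 0.423, 0.481, 0.623 and 0.438 in euglycemic libraries. All 8 mutant values were lower than all 3 WT values (exact permutation test, both mutant groups against WT, two-sided p = 0.00606, the smallest that 3 against 8 libraries can give), although the lowest WT and the highest diabetic values nearly touched. The FPKM of genes with 1 exon fitted whole fragments of totals between 9506348 and 16658857 per library, so that 1 fragment on 1 kb was worth 0.06003 to 0.105 FPKM. Diabetic replicate 1 stood apart: it listed 25711 genes above 0, against 13095 to 17329 in the other libraries, and euglycemic replicate 4 listed the fewest. The summed FPKM of 16 acinar marker genes was 6.87 to 64.1 in WT but 1384 to 6543 in diabetic replicates 1, 2 and 3 and euglycemic replicates 1 and 4. In the remaining diabetic and euglycemic replicates it was 20.6 to 25.8. Ins1, an insulin gene and the defining β-cell marker, was between 47726 and 101797 FPKM in all 11 libraries. Of the 10 β-cell markers, Slc2a2 and Slc30a8 fell in both mutant groups. Slc2a2, the glucose transporter of β-cells, was 69.7 to 87.0 FPKM in WT and 13.1 to 29.6 in the mutant libraries, and Slc30a8, the zinc carrier of insulin granules, was 642 to 712 in WT and 166 to 339 in the mutant libraries. The median change of the 10 was -0.51 on the log2 scale in diabetic and -0.54 in euglycemic cells.

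Transcripts for neutral amino acid carriers dominated the family. Slc38a4 (SNAT4, a sodium-coupled carrier of neutral amino acids) was the most abundant member in WT, at 88.3 ± 9.67 FPKM (SD, n = 3), and made up 15.8% to 31.8% of the summed FPKM of all members in the 11 libraries. Next in WT came Slc7a8 (LAT2, an exchanger of neutral amino acids) at 45.8 ± 16.0, Slc38a2 (SNAT2, an inducible carrier of small neutral amino acids) at 41.7 ± 9.53, Slc7a5 (LAT1, the exchanger of large neutral amino acids) at 35.3 ± 15.7 and Slc3a2 (the CD98 heavy chain, partner of LAT1 and LAT2) at 30.02 ± 9.71 FPKM. The SDs of these 4 overlap, so their order among themselves is not resolved. The remaining 18 tested members had WT means from 0.602 FPKM for Slc1a5 to 24.3 FPKM for Slc38a10. The sum over all 64 members was 311 to 411 FPKM in WT, 338 to 435 in diabetic and 298 to 356 in euglycemic libraries. The diabetic and euglycemic sums overlapped, and their difference of 0.31 on the log2 scale had an exact two-sided p of 0.0571.

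**Figure D1:**
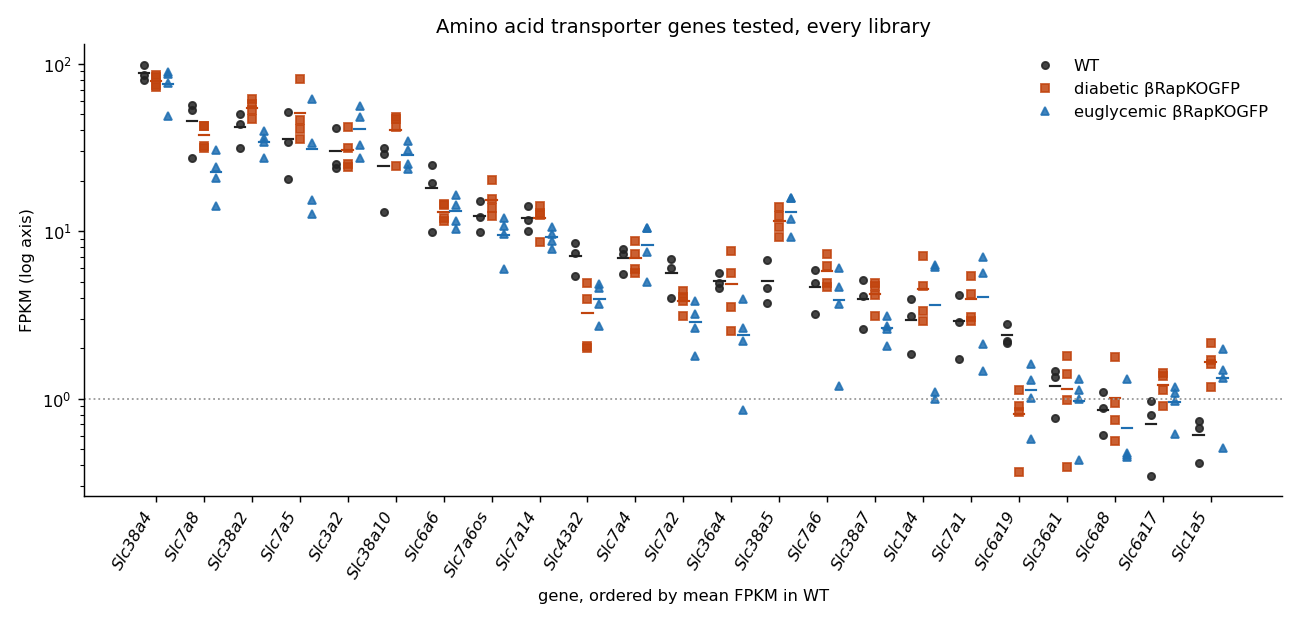
FPKM (log axis) of the 23 tested members in each of the 11 libraries, ordered by the mean in WT, with circles for WT, squares for diabetic and triangles for euglycemic βRapKOGFP. Short lines mark group means and the dotted line marks an FPKM of 1; Slc38a5 stands out as higher in every mutant library, and Slc6a19 and Slc43a2 as lower.

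Few members differed between Raptor-deficient and WT cells beyond the spread of the libraries. Changes were fitted on log2(FPKM + 1) over all 11251 genes that reached the minimum, with limma, and a gene was called where its Benjamini-Hochberg adjusted p was 0.05 or below and it changed by 1.5-fold or more. In diabetic against WT, 0 of the 23 members were called, where 0.969% of all genes were. In euglycemic against WT, 1 was called, Slc38a5, where 0.551% of all genes were. With both mutant groups set against WT, Slc38a5 was again the member called, where 1.05% of all genes were. No member was called between diabetic and euglycemic cells, where 0.00889% of all genes, a single gene, were. By unadjusted p of at most 0.05, 5 members differed in diabetic against WT (3 higher and 2 lower, beside 11.9% of all genes), 6 in euglycemic against WT (1 higher and 5 lower, beside 13.9%) and 6 in both mutant groups against WT (2 higher and 4 lower, beside 11.3%). Members whose libraries did not overlap between groups numbered 4 in diabetic against WT (13.5% of all genes), 5 in euglycemic against WT (10.9%) and 3 in both mutant groups against WT (3.68%). Of the 23 tested members, 21.7%, 26.1% and 26.1% had such an unadjusted p in the 3 comparisons, and 17.4%, 21.7% and 13.0% had groups that did not overlap. Slc1a5 and Slc6a17 reached the minimum only in mutant libraries, a route that favours a higher value there. Without these 2, the members with such a p numbered 2 higher and 2 lower in diabetic, 1 higher and 5 lower in euglycemic and 1 higher and 4 lower in both mutant groups against WT, and those whose groups did not overlap numbered 1 higher and 2 lower, 1 higher and 4 lower, and 1 higher and 2 lower. The median change over the 23 was 0.08 on the log2 scale in diabetic and -0.26 in euglycemic cells, beside 0.01 and -0.01 over all genes tested.

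**Figure D2:**
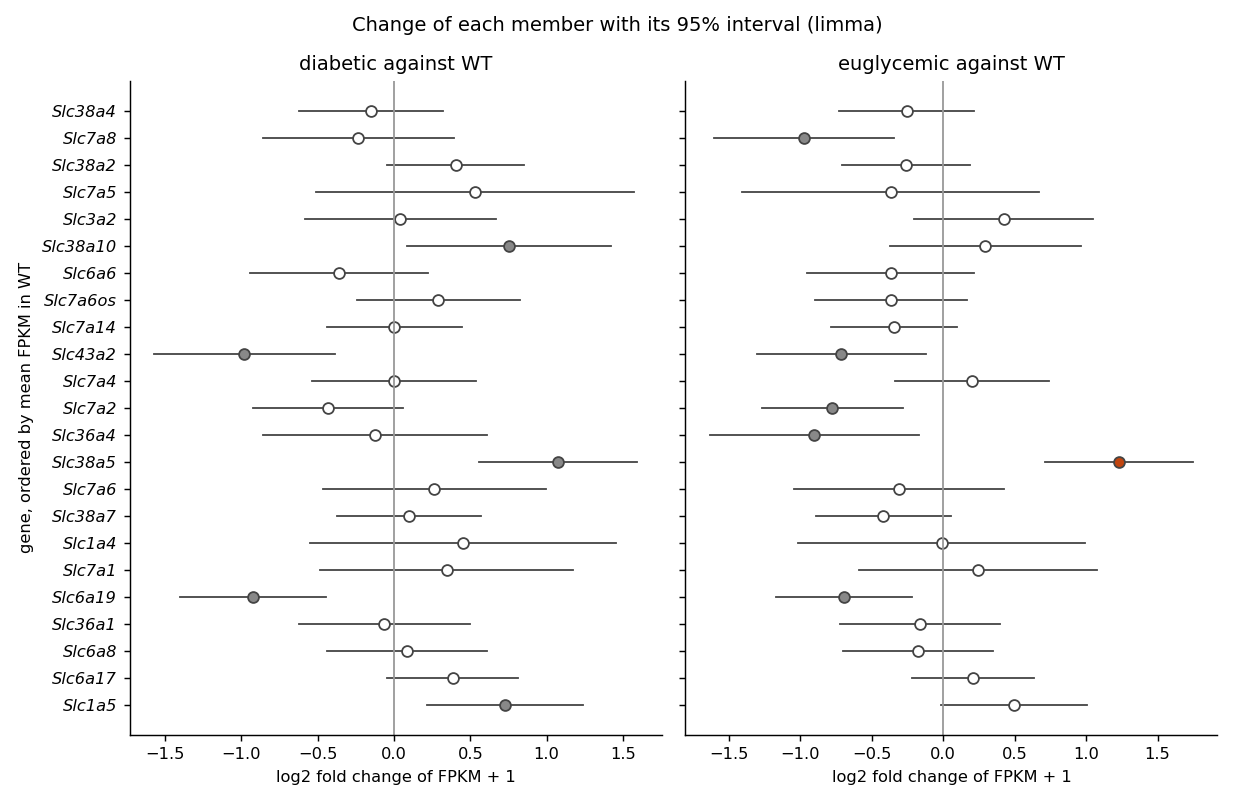
Change of each tested member against WT on the log2(FPKM + 1) scale with its 95% interval from limma, for diabetic (left) and euglycemic (right) βRapKOGFP β-cells. The filled orange point is the member called (Slc38a5, 1.23 in euglycemic cells), grey points are those with p at or below 0.05 before adjustment, and open points the rest.

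Slc38a5, which encodes the glutamine, asparagine and histidine carrier SNAT5 (chrX:8271133-8280179, plus strand, GRCm38), rose in the mutant cells. Its FPKM was 6.70, 4.58 and 3.73 in WT. The diabetic libraries had 14.0, 9.17, 10.6 and 12.4, and the euglycemic libraries 15.7, 11.8, 15.7 and 9.17. All 8 mutant libraries were above all 3 WT libraries. The change was 1.23 ± 0.24 (SE) on the log2 scale in euglycemic against WT, or 2.35-fold (adjusted p = 0.0389), and 1.15 ± 0.21, or 2.23-fold, with both mutant groups together (adjusted p = 0.0213). In diabetic cells alone it was 1.08 ± 0.24 and just missed the threshold (adjusted p = 0.0563). Diabetic and euglycemic levels differed by -0.16 on the log2 scale with a 95% interval from -0.64 to 0.32. The direction held in all 20 alternatives of the euglycemic comparison (1.07 to 1.44), but the adjusted p was at most 0.05 in 6 of them. Leaving out WT replicate 2 or 3, diabetic replicate 1, 3 or 4 or euglycemic replicate 1, 2 or 3 ended the euglycemic call (adjusted p from 0.0553 to 0.261), leaving out WT replicate 2 or 3 ended that of both mutant groups (adjusted p = 0.152 and 0.18), and leaving out euglycemic replicate 4 made the diabetic change a call (adjusted p = 0.0255). In that last fit 1.88% of all genes were called in diabetic against WT, against 0.969% with every library.

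RNA of other islet cell types was higher in the same 8 libraries as Slc38a5. The summed FPKM of 10 α-cell markers was 2139 to 3863 in WT, 5174 to 16131 in diabetic and 5694 to 25539 in euglycemic libraries. Gcg, the glucagon gene, made up most of the sum in every mutant library, at 734 to 2116 in WT, 3432 to 14073 in diabetic and 4093 to 22921 in euglycemic libraries. It was called higher in euglycemic against WT, 1 of the 7 α-cell markers tested. By unadjusted p of at most 0.05, 2 of the 7 were higher in diabetic and 3 in euglycemic cells, and 0 lower. Tm4sf4, also abundant, was 1091 to 2349 in WT, 975 to 1409 in diabetic and 930 to 1769 in euglycemic libraries, with overlapping groups. The summed FPKM of 6 δ- and PP-cell markers was 2113 to 3622 in WT, 9114 to 25242 in diabetic and 10439 to 26286 in euglycemic libraries, and 4 of the 5 tested were called higher in euglycemic against WT (Ppy, Pyy, Rbp4 and Sst), with 2 of them, Ppy and Pyy, also in diabetic against WT. Of 6 duct markers tested, Krt19 and Spp1 were called higher in euglycemic and Spp1 in diabetic cells; the sums of the 7 duct markers were 61.6 to 76.2 FPKM in WT, 63.5 to 94.1 in diabetic and 102 to 137 in euglycemic libraries, so that diabetic and WT libraries overlapped. Of the immune markers, the summed FPKM of 9 was 42.6 to 56.9 in WT, 75.2 to 199.7 in diabetic and 58.9 to 128 in euglycemic libraries, so that every mutant library was above WT. C1qa, a complement gene of macrophages, had the highest value of the 9 in every library (33.3 to 41.4 FPKM in WT and 53.8 to 196 in the mutant libraries), Ptprc, the marker of all leukocytes, was at 0 in 10 of the 11 libraries, and of the 5 tested 0 were called higher and Cd79a, a B-cell gene, was called lower against WT in both mutant groups. In the 3 mutant libraries with little acinar RNA, diabetic replicate 4 and euglycemic replicates 2 and 3, Slc38a5 stood at 12.4, 11.8 and 15.7 FPKM, also above all WT libraries. With the 5 acinar-rich libraries left out, its change was 1.32 in euglycemic against WT (adjusted p = 0.222) and 1.25 with both mutant groups together (adjusted p = 0.122). The part of α-, δ-, PP-, duct- and immune-cell RNA in the change was not tested, and in sorted bulk cells a change in the cell mix and a change per cell cannot be told apart.

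Slc6a19 and Slc43a2, carriers of neutral amino acids, were the members with every mutant library below every WT library, and neither was called. Slc6a19 (B0AT1, the sodium-coupled carrier of neutral amino acids in gut and kidney) had FPKM of 2.15, 2.20 and 2.80 in WT, 0.898, 0.366, 1.12 and 0.826 in diabetic and 1.28, 0.570, 1.01 and 1.62 in euglycemic libraries. No mutant library reached the lowest WT value. Its change was -0.92 ± 0.22 on the log2 scale in diabetic (adjusted p = 0.0777) and -0.69 ± 0.22 in euglycemic cells (adjusted p = 0.202). Without euglycemic replicate 4, whose library enters the shared estimate of the spread, the diabetic change passed (adjusted p = 0.0376). In that fit 1.88% of all genes were called in diabetic against WT, against 0.969% with every library. With a pseudocount of 0.1, which dampens low values less, the changes were -1.53 (adjusted p = 0.145) and -1.098 (adjusted p = 0.296). Cltrn (collectrin), a membrane partner that brings B0AT1 to the cell surface in the kidney, was at 244 to 401 FPKM in WT, 310 to 506 in diabetic and 372 to 801 in euglycemic libraries, with overlapping groups.

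Slc43a2 (LAT4, which lets branched-chain amino acids, phenylalanine and methionine out of cells) had FPKM of 5.38, 7.44 and 8.50 in WT, 2.05, 4.93, 3.95 and 2.01 in diabetic and 3.66, 2.72, 4.83 and 4.60 in euglycemic libraries. Every mutant library was below every WT library. The change was -0.98 ± 0.27 in diabetic (adjusted p = 0.141) and -0.71 ± 0.27 in euglycemic cells (adjusted p = 0.278). Exons of the opposite-strand gene Gm45606 cover 9.18% of its exon bases, and reads of the opposite strands were not told apart.

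**Figure D3:**
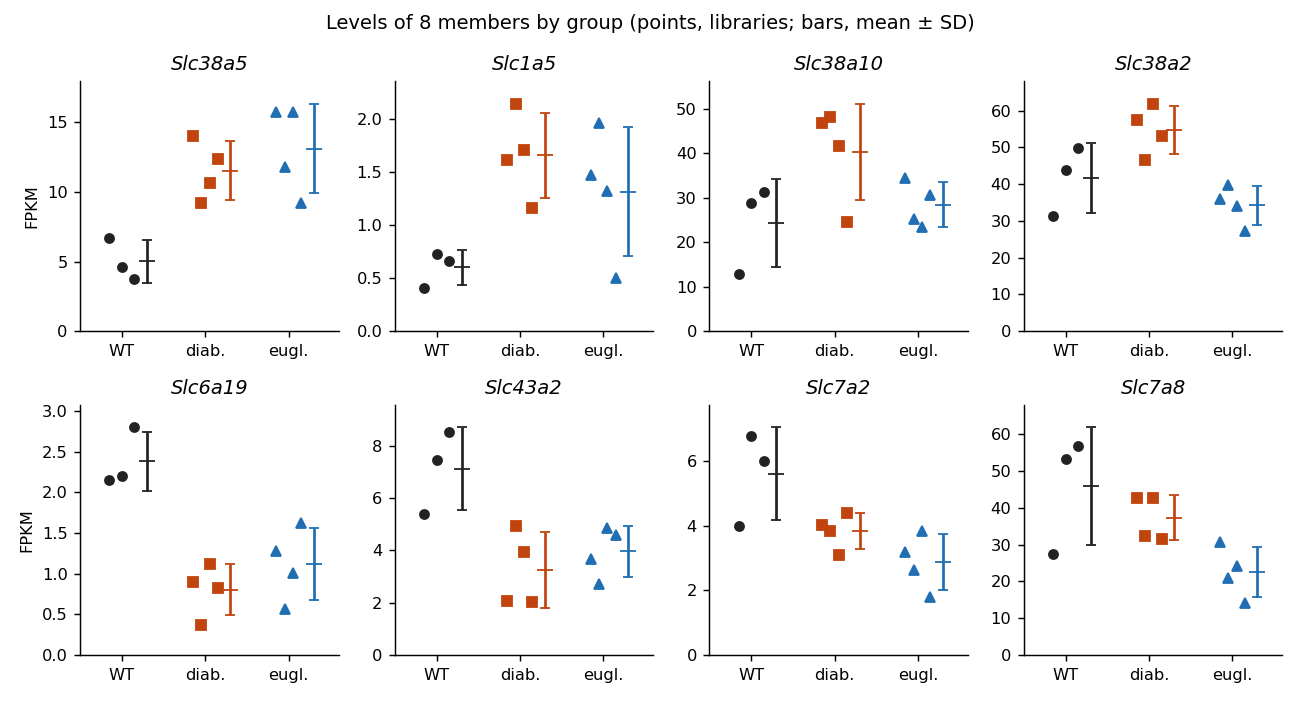
FPKM of 8 members in WT (circles, n = 3), diabetic (diab., squares, n = 4) and euglycemic (eugl., triangles, n = 4) libraries, with the mean and SD beside the points and every axis starting at 0. The upper row holds Slc38a5, Slc1a5 and Slc38a10, with higher means in both mutant groups than in WT, and Slc38a2, which is higher in every diabetic than in every euglycemic library; the lower row holds 4 members with lower means in both mutant groups.

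The exchangers that pair with the CD98 heavy chain spread widely between libraries of the same group. Slc3a2 had FPKM of 41.2, 23.8 and 25.1 in WT, 25.3, 41.8, 31.6 and 24.1 in diabetic and 27.3, 32.7, 56.0 and 47.9 in euglycemic libraries, and the 3 groups overlapped. Slc7a5 had 20.4, 33.9 and 51.7 in WT, 46.1, 80.9, 40.6 and 35.4 in diabetic and 12.7, 15.3, 33.6 and 61.4 in euglycemic libraries. Its euglycemic libraries alone spanned more than the WT and diabetic means, and the change of 0.53 in diabetic cells had a 95% interval from -0.51 to 1.57. Slc7a8 had 27.4, 53.2 and 56.7 in WT, 42.7, 32.4, 42.6 and 31.5 in diabetic and 30.7, 20.9, 24.3 and 14.2 in euglycemic libraries. WT replicate 1 was the exception among otherwise higher WT values. The change was -0.97 ± 0.29 in euglycemic against WT (adjusted p = 0.178), and without that replicate it was -1.30 and passed the threshold (adjusted p = 0.0279). In that fit 4.76% of all genes were called, against 0.551% with every library. Of the 20 alternatives for this change, 2 gave an adjusted p of at most 0.05. The ratio of Slc7a8 to Slc7a5 was 1.34, 1.57 and 1.097 in WT and 0.927, 0.401, 1.05 and 0.891 in diabetic libraries, with the groups apart (exact two-sided p = 0.0571, where 0.0286 is the smallest possible), but it ran from 0.232 to 2.41 in euglycemic libraries. Slc7a6 (y+LAT2, an exchanger of cationic for neutral amino acids) was between 1.18 and 7.31 FPKM, with overlapping groups.

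Of the carriers of arginine and lysine, the inducible CAT2 was lower in euglycemic cells and the constitutive CAT1 overlapped between groups, neither of them called. Slc7a1 (CAT1) had FPKM of 4.14, 1.73 and 2.87 in WT, 3.09, 5.43, 2.90 and 4.22 in diabetic and 1.46, 2.11, 5.62 and 7.002 in euglycemic libraries, with no difference beyond the spread (95% interval of the euglycemic change from -0.59 to 1.08). Slc7a2 (CAT2) had 4.01, 6.80 and 6.03 in WT, 4.02, 3.83, 3.09 and 4.41 in diabetic and 3.18, 2.64, 3.85 and 1.80 in euglycemic libraries. Every euglycemic library was below every WT library, and the change was -0.78 ± 0.23 (adjusted p = 0.171). Without WT replicate 1 it was -0.96 (adjusted p = 0.042), in a fit that called 4.76% of all genes, against 0.551% with every library. Of the 20 alternatives for this change, 2 gave an adjusted p of at most 0.05. An opposite-strand gene, Gm26584, covers 6.95% of the Slc7a2 exon bases. The orphan members Slc7a4 and Slc7a14 were between 4.96 and 14.2 FPKM in all libraries, with changes between -0.34 and 0.20 against WT. P2rx6 covers 13.3% of the Slc7a4 exon bases on the opposite strand.

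Of the sodium-coupled Slc38 carriers other than Slc38a5, Slc38a2 separated the mutant groups from each other rather than from WT. It had FPKM of 31.2, 43.9 and 49.9 in WT, 57.6, 46.5, 61.9 and 53.0 in diabetic and 35.9, 39.8, 34.1 and 27.2 in euglycemic libraries. Every diabetic library was above every euglycemic library, by 0.67 ± 0.19 on the log2 scale (adjusted p = 0.132), and the WT libraries lay across both. Without WT replicate 1, which is in neither group but enters the shared estimate of the spread, the adjusted p was 0.0467. In that fit 3.4% of all genes were called between diabetic and euglycemic cells, against 0.00889% with every library. Slc38a10 (SNAT10, an intracellular carrier of glutamine, glutamate and aspartate) had 13.0, 28.8 and 31.2 in WT, 46.9, 48.1, 41.7 and 24.6 in diabetic and 34.6, 25.2, 23.4 and 30.7 in euglycemic libraries. Its change in diabetic cells was 0.75 ± 0.31 (adjusted p = 0.356). It was 0.35 with the acinar marker score as a covariate and 0.37 without WT replicate 1. Diabetic replicate 4, the diabetic library with little acinar RNA, lay within the WT range, and with the 5 acinar-rich libraries left out it stands alone for its group (change 0.11). The opposite-strand gene Gm11769 covers 5.72% of its exon bases. Slc38a4 had overlapping groups and changes of -0.15 and -0.26 against WT.

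The small Slc1 exchangers of alanine, serine, cysteine and, for ASCT2, glutamine were low in WT. Slc1a5 (ASCT2) had FPKM of 0.411, 0.732 and 0.663 in WT, 1.62, 2.15, 1.71 and 1.17 in diabetic and 1.48, 1.97, 1.32 and 0.503 in euglycemic libraries. It reached the minimum for testing in 7 mutant libraries and no WT library, so that its selection favoured a higher level in mutant cells and its values are given as a description. The differences from WT were 0.72 in diabetic and 0.50 in euglycemic cells, neither of them called, on a scale that understates changes at such low levels: with a pseudocount of 0.1 the diabetic difference was 1.33. Slc1a4 (ASCT1) had 3.95, 1.84 and 3.11 in WT, 2.91, 7.09, 3.35 and 4.69 in diabetic and 1.09, 0.996, 6.13 and 6.30 in euglycemic libraries, so that the euglycemic libraries fell on both sides of WT. The proton-coupled carriers of the Slc36 family, which act in part at the lysosome, were also low. Slc36a4 (PAT4) had 4.58, 5.60 and 4.88 in WT, 7.64, 5.64, 2.54 and 3.51 in diabetic and 2.65, 2.21, 3.91 and 0.848 in euglycemic libraries. All 4 euglycemic libraries were below WT, by -0.90 ± 0.34 (adjusted p = 0.266), or -0.60 with the 5 acinar-rich libraries left out, which leaves 2 euglycemic libraries. Slc36a1 (PAT1) stayed between 0.390 and 1.78 FPKM. Slc6a6, which encodes the taurine carrier TauT, had 9.90, 19.5 and 25.01 in WT against 10.2 to 16.4 in the mutant libraries, with changes of -0.36 and -0.37.

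The mutant groups differed in insulin treatment and blood glucose together. Setting diabetic against euglycemic cells, 18 of the 23 members had a higher mean of log2(FPKM + 1) in diabetic cells, and for 5 the unadjusted p was 0.05 or below, all of them higher, beside 20.6% of all genes, of which 1191 were higher and 1126 lower. They were Slc38a2, Slc7a8, Slc36a4, Slc38a7 (SNAT7, a lysosomal exporter of glutamine and asparagine) and Slc7a6os, with differences from 0.52 to 0.78 on the log2 scale and adjusted p from 0.132 to 0.197. Leaving out the 5 acinar-rich libraries leaves diabetic replicate 4 alone against euglycemic replicates 2 and 3, where the difference of Slc36a4 was 0.18 in place of 0.78 and that of Slc7a8 was 0.47 in place of 0.74, values that rest on that 1 diabetic library. In 4 of the 23, the libraries of the groups did not overlap, beside 14.3% of all genes. The median difference over the 23 was 0.26, beside 0.01 over all genes. Endothelial RNA differed between the same groups: the summed FPKM of 8 markers was 9.91 to 51.0 in diabetic and 0.0436 to 2.59 in euglycemic libraries, and Esm1, an endothelial marker, was the gene called between them (1.66 on the log2 scale, adjusted p = 0.0498). The summed FPKM of 7 stromal markers was 1.08 to 21.8 in diabetic and 0 to 0.398 in euglycemic libraries, also without overlap, and none of the 7 reached the minimum for testing. The part of either in the differences of the members was not tested. After rescaling to TPM (each library set to the same total), the median over all genes was 0.12 and that over the members 0.47.

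Inside each group, some members went up and down across libraries together with a mixed list of integrated stress response genes, Atf4 among them, and ATF4 targets. The score of 25 tested genes of the integrated stress response and ATF4 targets, taken as the mean of log2(FPKM + 1), was compared with each member after the group means were removed, so that neither genotype nor treatment enters. Slc7a1 followed it with r = 0.966 and rho = 0.964 (exact permutation within groups, two-sided p = 0.00145 and 0.00116, 3456 arrangements), and r = 0.940 without the 2 libraries farthest out. Slc1a4 followed with r = 0.943 and rho = 0.936 (exact p = 0.00145 and 0.00318, and r = 0.907 without those libraries). Slc3a2 had r = 0.869 and rho = 0.827 (exact p = 0.0122 and 0.0185, and r = 0.857). None passed after adjustment over all 11251 genes, where the adjusted p was 0.188, 0.188 and 0.253 and 0 genes reached 0.05. Of all genes, 14.4% had an exact p of at most 0.05, against 5 of the 23 members. The genes with r at least that of Slc7a1 numbered 6 of 11251, and those with r at least that of Slc1a4 numbered 21. The other members with such a p ran against the score: Slc7a6 had r = -0.72 and rho = -0.78 (exact p = 0.042 and 0.0379, and r = -0.57 without the 2 libraries), and Slc36a1 had r = -0.63 and rho = -0.65 (exact p = 0.0315 and 0.0286, and r = -0.54), with adjusted p of 0.325 and 0.303. The score was high in euglycemic replicates 3 and 4, WT replicate 1 and diabetic replicate 2, and low in euglycemic replicates 1 and 2, WT replicate 2 and diabetic replicate 1. The summed FPKM of 9 immediate early genes was 3512 in WT replicate 2, 5147 and 2099 in euglycemic replicates 1 and 2 and 1648 in diabetic replicate 1, against 978 to 1260 in the 4 libraries with the high score. In the libraries between them it was 3014 in WT replicate 3 and 1742 and 1118 in diabetic replicates 3 and 4, and its part in the relation was not tested. Between groups the 25 genes had 0 calls in any comparison, with 3 at an unadjusted p of at most 0.05 in diabetic, 2 in euglycemic and 4 in both mutant groups against WT and 2 between the mutant groups, beside 11.9%, 13.9%, 11.3% and 20.6% of all genes.

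**Figure D4:**
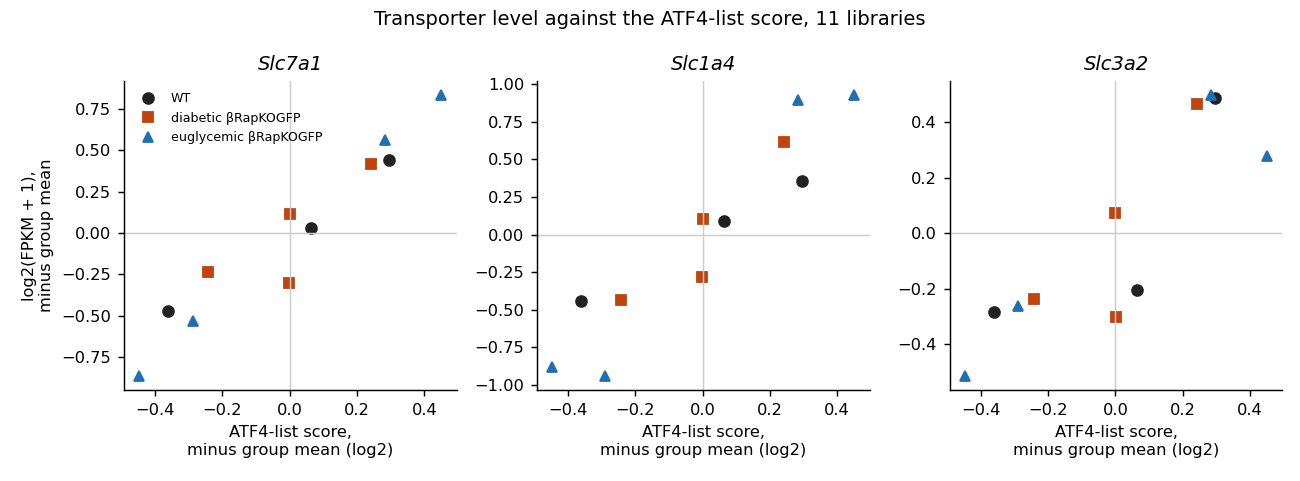
Level of Slc7a1, Slc1a4 and Slc3a2 (log2(FPKM + 1) minus the group mean) against the score of 25 ATF4-related genes (log2, minus the group mean) in 11 libraries, with circles for WT, squares for diabetic and triangles for euglycemic βRapKOGFP. The points rise together in all 3 panels, with r of 0.966, 0.943 and 0.869.

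The promoters of these genes are shown because ATF4 acts through a short DNA element. The windows run from 120 bases before to 30 bases after the RefSeq start site (GRCm38.p6), read along the gene, with the element TGATGNAA, or its reverse complement, in capitals where a search of both strands of the 300 bases around the start found it. They lie at chr11:20332684-20332833 for Slc1a4, chr5:148399875-148400024 for Slc7a1, chr19:8713868-8714017 for Slc3a2, all on the minus strand, and chrX:8271261-8271410 on the plus strand for Slc38a5, the member that rose.
Slc1a4: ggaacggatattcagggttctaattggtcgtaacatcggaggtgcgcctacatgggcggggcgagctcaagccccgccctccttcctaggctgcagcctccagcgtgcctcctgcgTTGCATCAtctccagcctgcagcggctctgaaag
Slc7a1: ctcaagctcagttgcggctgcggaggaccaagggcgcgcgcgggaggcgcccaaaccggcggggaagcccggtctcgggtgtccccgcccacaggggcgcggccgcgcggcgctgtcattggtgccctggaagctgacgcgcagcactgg
Slc3a2: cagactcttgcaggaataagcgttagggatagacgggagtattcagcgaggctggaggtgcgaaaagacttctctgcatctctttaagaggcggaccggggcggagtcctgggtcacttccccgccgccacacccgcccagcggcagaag
Slc38a5: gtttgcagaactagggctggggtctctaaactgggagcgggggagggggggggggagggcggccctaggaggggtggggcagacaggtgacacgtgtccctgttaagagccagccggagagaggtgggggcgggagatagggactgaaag
RefSeq gives Slc7a1 another start site, whose window (chr5:148392786-148392935, minus strand) is not shown and whose 300 bases also held no copy of the element. The element was in 3.97% of 32851 promoter windows. Of the 17 tested members with a window in the table, Slc1a4 alone held it, at position -4 on the reverse strand. Its absence from the other windows says only that these letters are not in these bases.

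The 41 members below the minimum included several with well-known roles. Slc38a9 (SNAT9, the lysosomal arginine sensor of mTORC1) was at 0.323 to 0.614 FPKM in WT, 0.447 to 0.793 in diabetic and 0.0945 to 0.701 in euglycemic libraries. Slc7a11 (xCT, the cystine and glutamate exchanger and an ATF4 target) was at 0.0858 to 0.141 in WT, 0.0923 to 0.349 in diabetic and 0.0956 to 0.144 in euglycemic libraries. Slc38a1 (SNAT1, a glutamine carrier) was at 0 in each WT library and reached 0.164 elsewhere. The 7 listed at 0 in all libraries were Slc1a6, Slc1a7, Slc36a3, Slc6a12, Slc6a21, Slc7a12 and Slc7a9. Of the other 34, 19 were above 0 in at least 3 libraries and 15 in 1 or 2. Over these 19 and 4 comparisons, 76 exact permutation tests gave 0 with p of at most 0.05, where 0.0286 is the smallest that 3 against 4 libraries can give. Diabetic replicate 1 had the highest value of 21 of the 41, listed 54 of all 64 members above 0 against 30 to 39 in the other libraries, and was the only library above 0 for 9.

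Of 18 tested further carriers and carrier partners, 1 was called in euglycemic against WT, beside 0.551% of all genes, and 0 in the other comparisons. By unadjusted p of at most 0.05, 3 of the 18 were higher and 1 lower in euglycemic against WT, beside 13.9% of all genes. The gene called, Slc16a10 (TAT1, which lets aromatic amino acids out of cells), fell in euglycemic cells. Its FPKM was 11.96, 21.2 and 16.9 in WT, 11.5, 10.3, 13.7 and 13.4 in diabetic and 7.95, 8.18, 6.72 and 5.73 in euglycemic libraries. The euglycemic change was -1.095 ± 0.21 (adjusted p = 0.0389), and that in diabetic cells -0.39 ± 0.21 (adjusted p = 0.503). Of 33 tested genes of amino acid sensing by mTORC1 (sestrins, Rag GTPases, Ragulator, GATOR subunits), 0 were called in any comparison, and an unadjusted p of 0.05 or below was found for 2 in diabetic, 3 in euglycemic and 3 in both mutant groups against WT and for 4 higher and 3 lower in diabetic against euglycemic, beside the same shares of all genes (11.9%, 13.9%, 11.3% and 20.6%).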

How the data were processed

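The authors sequenced poly-A RNA of sorted GFP-positive cells without strand information and deposited FPKM per gene for 11 libraries (mm10). The submitters' processing notes name HISAT2 2.0.4, StringTie 1.3.0 and edgeR, whereas the methods of the study name TopHat and Cufflinks, and this was not settled. No counts were used: fragment totals were inferred from the FPKM steps of 4490 genes with 1 exon, where 92.3% to 97.1% of low values came out whole within 0.02, and such steps do not tell a total from its multiples.

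Gene IDs were matched to GENCODE symbols (34267 of 34745 entries). The 11251 genes that reached 1 FPKM in 3 or more libraries were tested on log2(FPKM + 1), a scale that understates changes of low genes, with limma 3.58.1 (R 4.3.3; variance trend) in a fit over the 3 groups, adjusted by Benjamini-Hochberg over all of them; every adjusted p is from it unless a permutation is named. Low members, Rptor, ratios and sums were compared by exact permutation over libraries, and correlations by exact permutation within groups. The fit was tested on simulated data. The labels do not say that replicates are separate mice, so p-values measure the spread between these libraries, which may be technical.

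Named were members called in any comparison, members with unadjusted p of at most 0.05 against WT, and 15 carriers taken whatever their values; those between the mutant groups were added after their values were seen. Members and lists were chosen with earlier results of these data known. The alternatives were no filter, a pseudocount of 0.1, TPM, median-of-ratios scaling, a replicate block, only the groups compared, library weights, an acinar covariate and leaving out each library. The fit without the acinar-rich libraries and the alternatives of the correlations were chosen after seeing the data. Promoters are from RefSeq (GRCm38.p6).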

Additional observations from a re-analysis of the deposited data

Results flagged for a closer look

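Among 46 groups of 4 libraries (the diabetic and the euglycemic group for each of the 23 tested members), 1 held a library far from the rest. Slc6a8, which encodes the creatine carrier, was at 1.301 FPKM in euglycemic replicate 4 and between 0.445 and 0.475 in the other 3 euglycemic libraries. The gap to the nearest library was 0.966 of the range of the group. At the limit used, chance marks about 1 group in 20. That library also had the fewest genes above 0 and the highest acinar marker sum, and the part of these in the value was not tested.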

How the results depend on the processing

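Which members are called depends on the processing. In diabetic against WT, where 0 were called, 1 was called (Slc38a5) with TPM, with median-of-ratios scaling and with only the groups compared, 5 were called with library weights (beside 4.9% of all genes), and 0 to 2 when a library was left out. In euglycemic against WT, the 1 call was lost (0) with no filter, TPM, only the groups compared, the acinar covariate and the low-acinar libraries, 9 were called with library weights (beside 20.3% of all genes), and 0 to 3 without a library (3 without WT replicate 1, beside 4.76%). With both mutant groups against WT, it was lost (0) with no filter and with the low-acinar libraries, 7 were called with weights (beside 9.92%), and 0 to 2 without a library. Between diabetic and euglycemic cells 3 were called with weights (Slc38a2, Slc7a5 and Slc7a8, beside 10.8%) and 0 to 1 without a library (1 without WT replicate 1, beside 3.4%). Where 2 members were called without a library, it was euglycemic replicate 4 (beside 1.88% of all genes in diabetic and 1.61% in both mutant groups). With the replicate block the euglycemic count was 0 and Slc38a5 changed by 1.29 (adjusted p = 0.0949); it changed no other call. Libraries with the same number did not deviate together (mean correlation -0.132 over 10 pairs, from -0.368 to 0.212, against 0.0433 over 30 pairs with different numbers). The labels do not say what the numbers stand for, and whether libraries of the same number were handled together was not tested.

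Of 719 values of single members under alternatives, 659 kept direction and side of the threshold, and 19 reversed. The reversed values belonged to 6 changes that were not called and ran from -0.13 to 0.29 in the fit over all libraries. Slc1a4 in euglycemic cells was 0.0021 with median-of-ratios scaling and -0.32 to 0.30 without a library. In diabetic cells, Slc36a1 was 0.14 with the acinar covariate, 0.15 in the low-acinar libraries and -0.21 to 0.13 without a library, Slc36a4 was 0.055 with the replicate block, 0.038 with the covariate and -0.34 to 0.086 without a library, and Slc3a2 was -0.26 in the low-acinar libraries, where 1 diabetic library is left, and -0.11 to 0.29 without a library. In euglycemic cells, Slc38a10 was -0.051 with weights and -0.089 to 0.51 without a library, and Slc7a1 -0.034 to 0.53 without a library. The cause was not tested. The correlations with the ATF4 list stayed between 0.803 and 0.987 in all alternatives for Slc7a1, Slc1a4 and Slc3a2. A fit with only the groups compared was not made for both mutant groups, which takes in all libraries. At this depth 1 fragment on 1 kb was worth 0.06003 to 0.105 FPKM, which limits what could be seen of members below the minimum.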

Other observations

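Among 33 tested enzymes that use amino acids, 2 were called in diabetic against WT, beside 0.969% of all genes. The same 2 were called with both mutant groups against WT, beside 1.05%, and 0 in euglycemic against WT, beside 0.551%. By unadjusted p of at most 0.05, 4 were higher and 4 lower in diabetic and 6 higher and 3 lower in euglycemic cells. The shares of all genes were 11.9% and 13.9%. Aass, which starts lysine breakdown, rose in diabetic cells: its FPKM was 0.554, 1.01 and 1.24 in WT, 6.84, 2.55, 6.89 and 4.81 in diabetic and 4.35, 4.96, 2.43 and 6.67 in euglycemic libraries, a change of 1.64 ± 0.32 on the log2 scale (adjusted p = 0.0327) in diabetic and 1.49 ± 0.32 (adjusted p = 0.0655) in euglycemic cells. Gad1, which makes GABA from glutamate, fell in diabetic cells: it was 20.1, 16.2 and 16.0 in WT, 7.97, 7.06, 9.51 and 9.02 in diabetic and 11.8, 9.36, 9.70 and 11.5 in euglycemic libraries, a change of -0.97 ± 0.18 (adjusted p = 0.0251) and -0.67 ± 0.18 (adjusted p = 0.143). Abat, which breaks GABA down, had changes of -0.51 and -0.81, with adjusted p of 0.413 and 0.161.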
